A study of Mus musculus with 6 samples.

Results

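Fmo1, Fmo2, Fmo4 and Fmo5, members of the flavin-containing monooxygenase family, were followed in mouse liver and liver tumors. They were picked by gene symbol, 4 of the 34745 genes in the deposited table. The study sequenced messenger RNA from liver carcinomas and precancerous livers of transgenic mice carrying the Hras12V oncogene, and from normal livers of wild-type mice. Each tissue was taken from males at 9 months and from females at 15 months, all on the C57BL/6 strain and with no treatment given. This makes 6 groups of 1 library each. Sex and age cannot be told apart, and in the normal livers genotype and tissue differ from the other groups at once. The labels do not give the promoter that drives the transgene, whether libraries were made from single mice or pools, or whether a tumor and a precancerous library share a mouse.

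Flavin-containing monooxygenases are enzymes of the endoplasmic reticulum that use NADPH and molecular oxygen to oxygenate soft nucleophiles, mainly the nitrogen and sulfur atoms of drugs, foreign amines and dietary compounds. They differ from cytochromes P450 in that the flavin takes electrons directly from NADPH, without a separate reductase. FMO1 is the form with the broadest substrate range and also turns hypotaurine into taurine. FMO2 is the main form of lung in most mammals, FMO4 is a low-abundance form with few known substrates, and FMO5 acts mainly as a Baeyer-Villiger oxygenase and influences body weight and plasma lipids in mice. The liver is a main site of the family in mice.

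Fmo4, Fmo1 and Fmo2 stand next to each other on the minus strand of chromosome 1, and Fmo5 stands alone on chromosome 3. In the table's GRCm38 coordinates, Fmo4 (ENSMUSG00000026692) spans chr1:162793188-162813972 and Fmo1 (ENSMUSG00000040181) spans chr1:162829561-162866610. Fmo2 (ENSMUSG00000040170) spans chr1:162874317-162898726, and Fmo5 (ENSMUSG00000028088) spans chr3:97628804-97655282 on the plus strand. All 4 are annotated as protein coding. No exonic base of these 4 genes overlapped an exon on the opposite strand in GENCODE vM21, and they shared no run of 50 exonic bases with each other. Upstream sequence is shown for the 2 members whose levels varied most between libraries. Both stretches are from RefSeq on GRCm38.p6, read 5′ to 3′ on the minus strand, and lie outside the annotated exons of the gene. Fmo2 is shown over chr1:162898759-162899008, and Fmo4 over chr1:162812654-162812799, inside the span the table gives the gene. Capitals mark the CCAAT box.
Fmo2: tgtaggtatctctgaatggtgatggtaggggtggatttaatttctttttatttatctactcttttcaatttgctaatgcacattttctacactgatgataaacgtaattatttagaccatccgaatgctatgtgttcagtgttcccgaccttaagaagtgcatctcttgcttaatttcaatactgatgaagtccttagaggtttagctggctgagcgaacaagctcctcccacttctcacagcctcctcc
Fmo4: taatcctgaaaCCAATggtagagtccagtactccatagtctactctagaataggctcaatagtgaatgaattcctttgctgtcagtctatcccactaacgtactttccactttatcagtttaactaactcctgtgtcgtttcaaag
Promoters were found for 3 of the 4 members, and Fmo1 had no entry. Their 300-base windows were searched on both strands for the CCAAT box, the GC box (letters GGGCGG), the TATA box (letters TATAAA), part of the HNF1 site (letters GTTAAT), part of nuclear receptor sites (letters AGGTCA), the antioxidant response core (letters TGACNNNGC) and the STAT site (letters TTCNNNGAA). The antioxidant core and the opposite strand of the nuclear receptor letters both begin with TGAC, so matches to them can overlap. The window around the Fmo2 stretch held none of these. A second Fmo2 start had a window with the nuclear receptor letters, present in 16.3% of the 32851 mouse windows, and the STAT site, present in 8.3%. The Fmo4 window held the CCAAT box, present in 37.4% of windows, and the nuclear receptor letters. The Fmo5 window held the CCAAT box, the GC box (35.7% of windows) and the TATA box (13.6% of windows). The HNF1 letters were present in 7.1% of all windows and the antioxidant core in 12.4%, and neither was found in a member's window. GC content was 41.3% in the outer Fmo2 window, 42.7% in the Fmo4 window and 56.0% in the Fmo5 window, against a median of 52.7%.

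Each gene has a raw count and an FPKM in every library; FPKM is the count per unit of gene length, relative to the library's total. Library totals ran between 5996585 and 7347064 in the males and between 15047022 and 18434508 in the females, so the male values carry more counting error. Tests ran over 11435 genes that reached 1 FPKM in 2 or more libraries, and all 4 members passed this filter. Sex markers fitted the labels: Ddx3y, on the Y chromosome, had 723 to 850 counts in the males and at most 1 in the females, and Xist had at most 2 counts in the males and at least 11798 in the females. The row of the mouse Hras gene read 3.50 and 2.84 FPKM in male and female tumors, 3.27 and 2.22 FPKM in precancerous livers, and 3.28 and 2.05 FPKM in normal livers; the sources used here do not say whether that row counts transgene reads. In whole tissue, fewer cells of a type and less RNA per cell cannot be told apart.

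Fmo5 was the most abundant of the 4 members in every library, and Fmo1 came next in every library. Fmo5 lay in the top 3.17% to 6.01% of tested genes by FPKM. Fmo1 lay between the top 8.07% in female normal liver and the top 16.5% in male normal liver. Fmo4 and Fmo2 were lower throughout, at 0.400 to 9.40 FPKM. Fmo4 exceeded Fmo2 in both tumors and both normal livers, while Fmo2 exceeded Fmo4 in both precancerous livers. The plot of FPKM by library shows 4 different patterns.

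**Figure D1:**
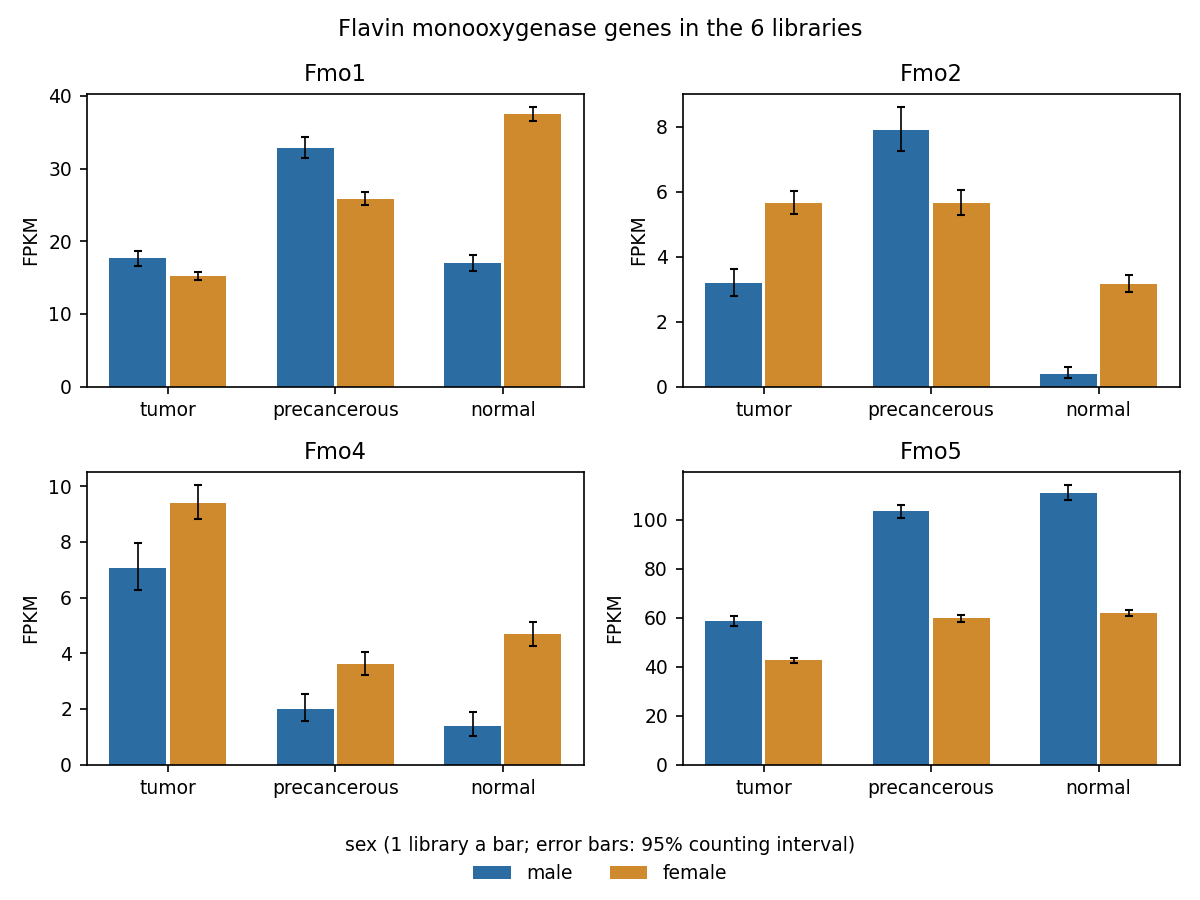
FPKM of each gene (vertical axes, each from 0 with its own scale) in tumor, precancerous and normal liver of males and females, 1 library a bar, with error bars for the 95% counting interval only. Fmo4 is highest in both tumors (7.06 and 9.40 FPKM), Fmo5 is lowest in the tumor of each sex, and Fmo2 is lowest in male normal liver (0.400 FPKM).

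Fmo5, the Baeyer-Villiger form, was lower in tumor than in either other tissue of the same sex. In males it had 58.6 FPKM (3628 counts) in tumor, 103 FPKM (6001 counts) in precancerous liver and 111 FPKM (5606 counts) in normal liver. In females it had 42.6 FPKM (6607 counts) in tumor, 59.6 FPKM (7560 counts) in precancerous liver and 62.0 FPKM (9214 counts) in normal liver. Both sexes ranked the tissues alike, and in each tissue the male library was above the female one. The male tumor and female precancerous libraries were the only neighbours in the order of levels that did not differ beyond counting error. The tumor-to-precancerous ratio was 0.567 in males (95% exact counting interval 0.544 to 0.591) and 0.713 in females (0.690 to 0.737). The precancerous-to-normal ratio was close to 1, at 0.931 in males (0.898 to 0.966) and 0.963 in females (0.934 to 0.993). These intervals cover counting error only, and no replicate library bears on them.

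Fmo1, the broad-range form, was lower in tumor than in precancerous liver of the same sex, while its level in normal liver differed between the male and female libraries. In males it had 17.6 FPKM (1190 counts) in tumor, 32.9 FPKM (2081 counts) in precancerous liver and 17.0 FPKM (936 counts) in normal liver. In females it had 15.2 FPKM (2578 counts) in tumor, 25.9 FPKM (3575 counts) in precancerous liver and 37.4 FPKM (6075 counts) in normal liver. Female normal liver was thus the highest of the 6 libraries, and male normal liver did not differ from male tumor beyond counting error. The tumor-to-precancerous ratio was 0.536 in males (0.499 to 0.576) and 0.589 in females (0.559 to 0.619). The precancerous-to-normal ratio was 1.93 in males (1.79 to 2.09) and 0.691 in females (0.662 to 0.720), so the sexes lay on opposite sides of 1. The tumor-to-normal ratio was 1.04 in males (0.952 to 1.13), an interval that includes 1, and 0.406 in females (0.388 to 0.426).

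Fmo4, the low-abundance form, was higher in tumor than in the other tissues of both sexes. In males it had 7.06 FPKM (277 counts) in tumor, 2.01 FPKM (74 counts) in precancerous liver and 1.41 FPKM (45 counts) in normal liver. In females it had 9.40 FPKM (925 counts) in tumor, 3.61 FPKM (290 counts) in precancerous liver and 4.68 FPKM (441 counts) in normal liver. The 2 tumors were above all 4 other libraries, and how many of all tested genes order that way was not counted. Each female library was above the male library of its tissue. The tumor-to-precancerous ratio was 3.51 in males (2.71 to 4.60) and 2.60 in females (2.28 to 2.98). The tumor-to-normal ratio was 5.02 in males (3.66 to 7.05) and 2.01 in females (1.79 to 2.26). Male precancerous and male normal liver did not differ beyond counting error, with a ratio of 1.43 (0.975 to 2.12). In females the precancerous-to-normal ratio was 0.772 (0.663 to 0.897).

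Fmo2, the lung form, varied over the widest range. In males it had 3.20 FPKM (235 counts) in tumor, 7.91 FPKM (545 counts) in precancerous liver and 0.400 FPKM (24 counts) in normal liver. In females it had 5.67 FPKM (1045 counts) in tumor, 5.65 FPKM (851 counts) in precancerous liver and 3.18 FPKM (561 counts) in normal liver. Normal liver was the lowest tissue in each sex, and male normal liver stood far below the other 5 libraries. There Fmo2 ranked 10982 among the 11435 tested genes. The precancerous-to-normal ratio was 19.8 in males (13.1 to 31.1) and 1.78 in females (1.60 to 1.98). The tumor-to-normal ratio was 7.99 in males (5.24 to 12.7) and 1.78 in females (1.61 to 1.98). Between tumor and precancerous liver the ratio was 0.404 in males (0.346 to 0.472), whereas in females it was 1.002 (0.915 to 1.10), an interval that includes 1. Male tumor and female normal liver did not differ beyond counting error either.

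Summed over the 4 members, FPKM was lowest in tumor in each sex. The sum was 86.5 FPKM in tumor, 146 FPKM in precancerous and 130 FPKM in normal liver of males. It was 72.8 FPKM in tumor, 94.8 FPKM in precancerous and 107 FPKM in normal liver of females. Fmo5 made up 67.8% of the sum in male tumor, 70.7% in male precancerous liver and 85.5% in male normal liver. In females its share was 58.4% in tumor, 62.9% in precancerous and 57.8% in normal liver. Fmo1 held 34.9% of the sum in female normal liver, its largest share, and 13.1% in male normal liver, its smallest. The share of Fmo4 was 8.16% in male and 12.9% in female tumor, and at most 4.36% in the other 4 libraries. The table's FPKM values imply gene lengths of 9189 bp for Fmo1, 10003 bp for Fmo2, 5339 bp for Fmo4 and 8423 bp for Fmo5. These are longer than the union of annotated exons, which is 6304, 5609, 3707 and 5675 bp in the same order of genes. Computed with union lengths, the Fmo5 share in male normal liver was 85.7%.

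**Figure D2:**
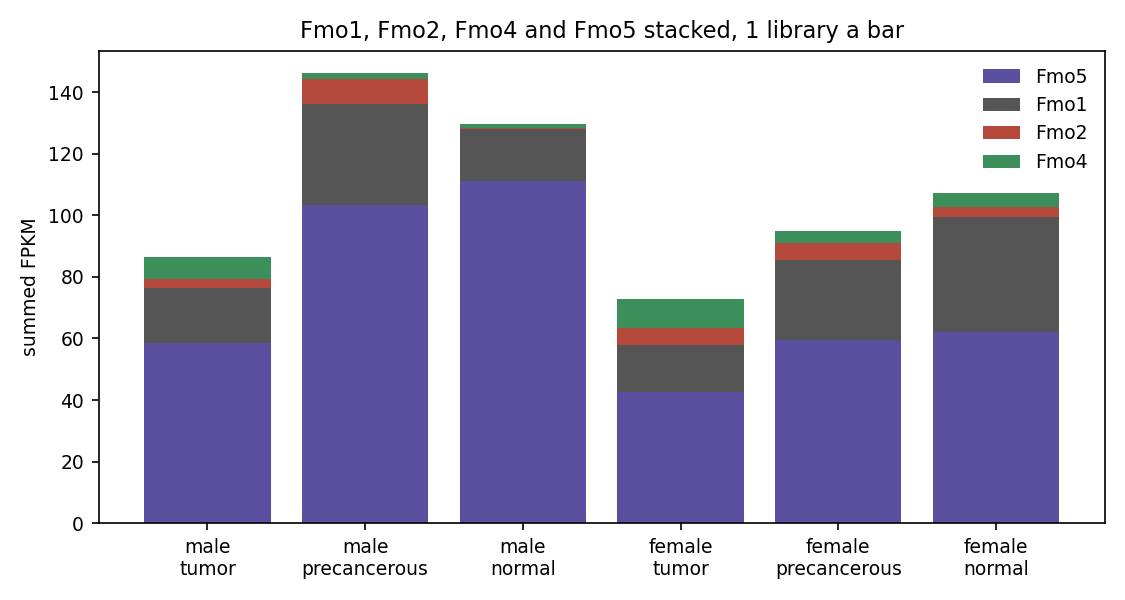
Summed FPKM of the 4 genes (vertical axis) in each of the 6 libraries, stacked by gene, with no error bars because each bar is 1 library. The sum is lowest in the tumor of each sex (86.5 and 72.8 FPKM), and Fmo5 is the largest layer in every bar.

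Tumor was first set against precancerous Hras12V liver, in a fit over all 6 libraries with a term for sex. Of the 4 members, 1 rose and 0 fell, where 25.9% of all tested genes passed an adjusted p under 0.05 (13.8% higher and 12.1% lower). Fmo4 rose, with a log2 fold change of 1.58 ± 0.31 (SE; edgeR quasi-likelihood test, Benjamini-Hochberg adjusted p = 0.0214), and was higher in both sexes. The call was lost without the male precancerous library (edgeR adjusted p = 0.142) and without the female precancerous library (edgeR adjusted p = 0.168). Fmo5 was at -0.68 ± 0.18, just outside the threshold (edgeR adjusted p = 0.0510), and lower in both sexes. Fmo1 was at -0.88 ± 0.39 (edgeR adjusted p = 0.163), lower in both sexes, and Fmo2 was at -0.80 ± 0.69 (edgeR adjusted p = 0.436). Without female normal liver the Fmo1 value was -0.86 with an edgeR adjusted p of 0.0197, and without male normal liver it was -0.87 with one of 0.0210. In the other 4 fits with a library left out Fmo1 did not pass, and its value ran from -1.26 without female precancerous to -0.43 without male precancerous liver (edgeR adjusted p up to 0.677). Fmo5 passed in 0 of the 6 such fits (edgeR adjusted p 0.0523 to 0.286). On the log2(FPKM + 1) scale 2 members reached 2-fold in males, Fmo4 higher at 1.42 and Fmo2 lower at -1.09, where 6.64% of tested genes were at least 2-fold higher and 4.7% at least 2-fold lower. In females Fmo4 alone did, at 1.17, where 5.94% were higher and 4.85% lower by that much. The median log2 fold change was -0.74 over the members and 0.03 over all tested genes. Each sex gives 1 library per tissue, so the fit rests on 2 residual degrees of freedom. The spread behind its p-values is how far the tissue differences disagree between the male and female libraries. edgeR moderates each gene's spread towards that of all tested genes, so other genes also enter each p-value. No group has a replicate, so sex, age and library noise cannot be told apart in that spread.

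Precancerous Hras12V liver was then set against normal wild-type liver, which shares its precancerous libraries with the comparison above. Of the 4 members, 0 passed, where 0.254% of all tested genes did (0.105% higher and 0.149% lower), by edgeR's quasi-likelihood test. DESeq2 and limma also called 0 of the 4. By edgeR, 1807 of the 11435 tested genes had an unadjusted p under 0.05. Of the 4 members, 1 did by each of the 3 tools. In the edgeR fit that member was Fmo2, at 2.15 ± 0.75 (SE; unadjusted p = 0.0337, edgeR adjusted p = 0.276), higher in both sexes. With a library left out its value ran from 1.18 without male normal to 4.02 without female normal liver, and was 1.20 without male and 3.42 without female precancerous liver. Fmo1 was at 0.15 ± 0.40 (edgeR adjusted p = 0.895), with the male and female libraries on opposite sides. Fmo4 was at -0.08 ± 0.31 (edgeR adjusted p = 0.937), with the sexes again on opposite sides, and Fmo5 was at -0.08 ± 0.18 (edgeR adjusted p = 0.879). The median was 0.04 over the members and -0.01 over all tested genes. On the log2(FPKM + 1) scale, 1 member was at least 2-fold higher in male precancerous than in male normal liver, namely Fmo2 at 2.67, where 1.92% of tested genes were, and 0 were at least 2-fold lower, where 1.77% were. In females the Fmo2 difference was 0.67, and 0 members reached 2-fold, where 1.23% of tested genes were at least 2-fold higher and 1.25% at least 2-fold lower.

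Tumor was last set against normal liver, which reuses the libraries of both comparisons above. Of the 4 members, 1 rose and 1 fell, where 33.4% of all tested genes passed (17.3% higher and 16.1% lower). Fmo4 rose by 1.50 ± 0.30 on the log2 scale (SE; edgeR quasi-likelihood adjusted p = 0.0189), and was higher in both sexes. This call was lost without the male precancerous library (edgeR adjusted p = 0.0511), and without female normal liver the value was 2.20. Fmo5 fell by 0.76 on the log2 scale, with an SE of 0.18 (edgeR quasi-likelihood adjusted p = 0.0316), and was lower in both sexes. The Fmo5 call held without the female tumor library (edgeR adjusted p = 0.0390) and was lost without any of the other 5 libraries, male tumor included (edgeR adjusted p 0.0831 to 0.107). Fmo1 was at -0.72 ± 0.40 (edgeR adjusted p = 0.218), a value that was -1.37 without male normal liver (edgeR adjusted p = 0.0150) and 0.06 without female normal liver. Fmo2 was at 1.34 ± 0.71 (edgeR adjusted p = 0.205), higher in both sexes, with a range of 0.51 (without male normal liver) to 3.36 over the fits with a library left out, the highest without female normal liver (edgeR adjusted p = 0.0375). On the log2(FPKM + 1) scale 2 members were at least 2-fold higher in male tumor than in male normal liver, Fmo4 at 1.74 and Fmo2 at 1.58, where 8.38% of tested genes were, and 0 were at least 2-fold lower, where 5.97% were. In females 1 was at least 2-fold lower, Fmo1 at -1.25, where 6.97% were, and 0 were at least 2-fold higher, where 7.42% were. The median was 0.31 over the members and 0.00 over all tested genes.

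**Figure D3:**
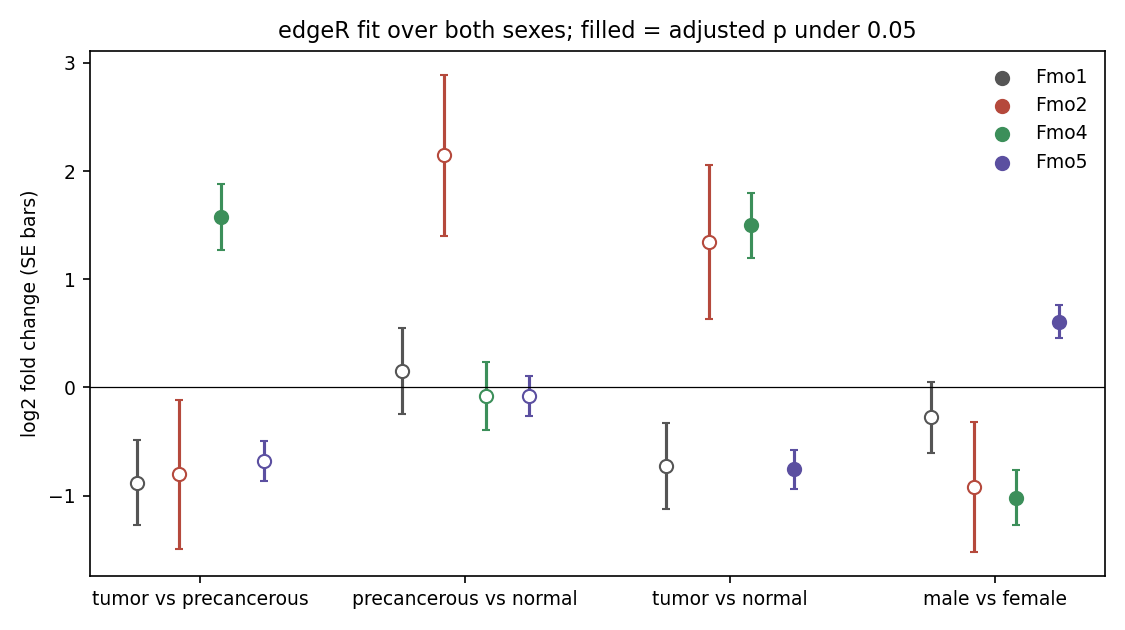
Log2 fold change of each gene (vertical axis) in the edgeR fit over all 6 libraries for the 4 comparisons, first-named group over the second, with bars for the SE; filled points have an adjusted p under 0.05. Fmo4 is filled in tumor vs precancerous (1.58), tumor vs normal (1.50) and male vs female (-1.02), and Fmo5 in tumor vs normal (-0.76) and male vs female (0.61).

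Males at 9 months were compared with females at 15 months in the same fit, across the 3 tissues. Of the 4 members, 1 was higher and 1 lower in males, where 37.3% of all tested genes passed (19.1% higher and 18.2% lower). Fmo5 was higher in males by 0.61 ± 0.15 on the log2 scale (SE; edgeR quasi-likelihood adjusted p = 0.0315), in each of the 3 tissues. Fmo4 was lower in males, at -1.02 ± 0.25 (edgeR quasi-likelihood adjusted p = 0.0324), also in each of the 3 tissues. The Fmo4 call was lost without male precancerous liver (edgeR adjusted p = 0.120) or female precancerous liver (edgeR adjusted p = 0.110). The Fmo5 call was lost without male precancerous (edgeR adjusted p = 0.171), male normal (0.0969), female precancerous (0.178) or female normal liver (0.107). Fmo1 was at -0.28 ± 0.33 (edgeR adjusted p = 0.528) and Fmo2 at -0.92 ± 0.60 (edgeR adjusted p = 0.272). The Fmo2 value was -0.25 without male normal and -0.24 without female normal liver, and -1.78 without male and -1.82 without female precancerous liver. The median was -0.60 over the members and -0.01 over all tested genes. With library totals in place of composition scaling, the genes called over the whole table split into 2731 higher and 1602 lower in males, beside 2187 higher and 2083 lower with it.

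The sexes differed most in normal liver. On the log2(FPKM + 1) scale, male minus female was -1.10 for Fmo1, -1.58 for Fmo2 and -1.24 for Fmo4 there, with 1 library on each side. So 3 of the 4 members were at least 2-fold lower in the male than in the female normal liver, where 3.27% of tested genes were. Fmo5 was on the other side, at 0.83, short of 2-fold, where 7.73% of tested genes were higher in the male by that much. In tumor the 4 differences were 0.20 for Fmo1, -0.67 for Fmo2, -0.37 for Fmo4 and 0.45 for Fmo5. In precancerous liver they were 0.33 for Fmo1, 0.42 for Fmo2, -0.61 for Fmo4 and 0.78 for Fmo5. No member reached a 2-fold difference between the sexes in tumor, where 6.72% of tested genes were at least 2-fold higher and 1.51% at least 2-fold lower in males, or in precancerous liver, where 6.88% and 2.07% were. The plot of male against female tissue differences shows the same members side by side.

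**Figure D4:**
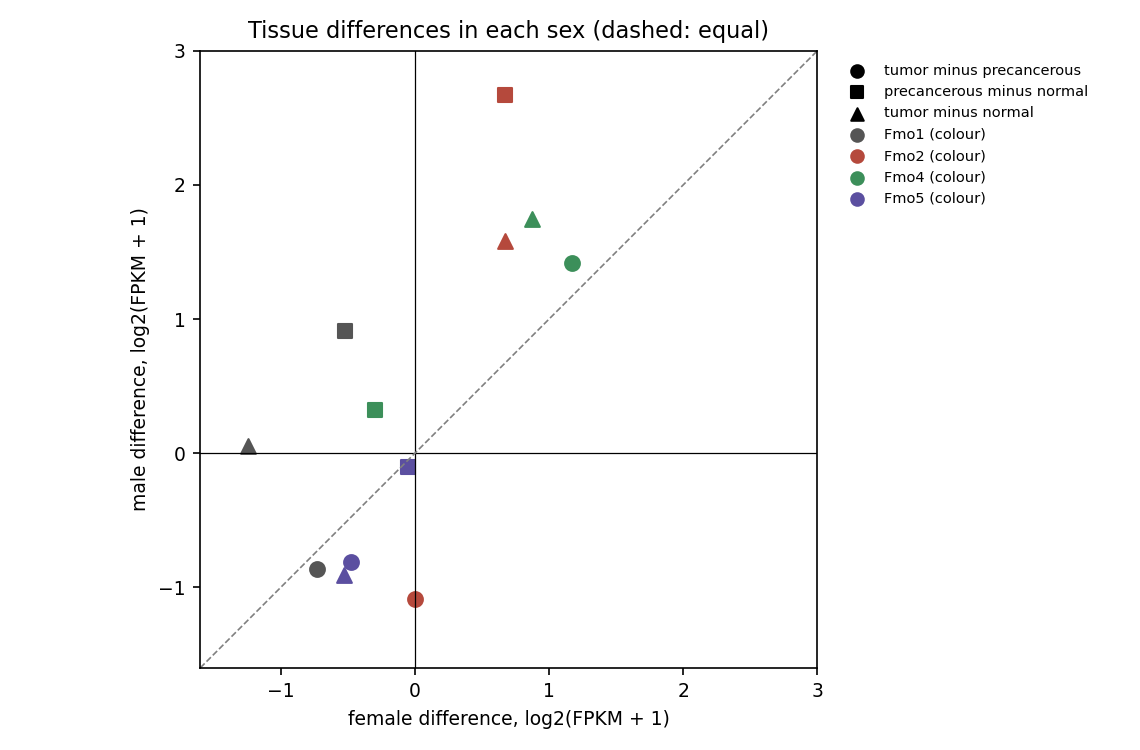
Difference between 2 tissues on the log2(FPKM + 1) scale in males (vertical axis) and in females (horizontal axis), coloured by gene and shaped by tissue pair, each point from 4 single libraries; the dashed line marks equal differences. Fmo5 and Fmo1 tumor minus precancerous lie below 0 in both sexes and Fmo4 above 0 in both, while Fmo1 precancerous minus normal is 0.91 in males and -0.52 in females.

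Fmo6, which stands beyond Fmo2 in the chromosome 1 cluster, had at most 1 count in any library, and Fmo9, also on chromosome 1, had 0 in all. Along the cluster the 3 expressed members did not share a direction between tumor and precancerous liver.

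**Figure D5:**
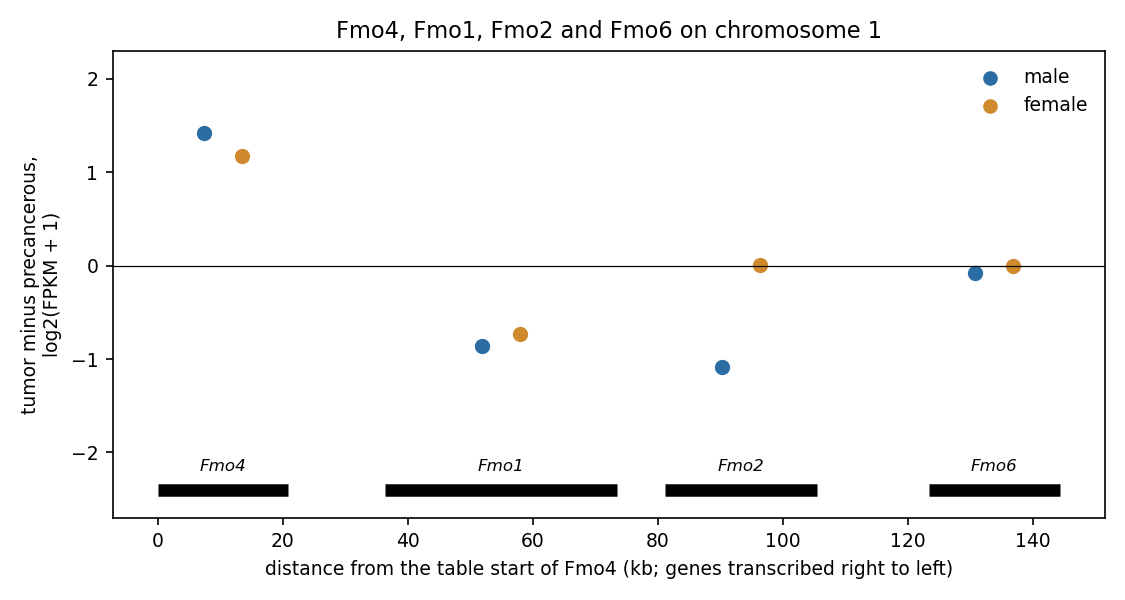
Tumor minus precancerous difference on the log2(FPKM + 1) scale (vertical axis) for Fmo4, Fmo1, Fmo2 and Fmo6 on chromosome 1, placed by distance in kb from the table's start of Fmo4 (horizontal axis); black bars are the gene spans and points are single-library differences in males and females. Neighbours differ in direction: Fmo4 is above 0 in both sexes (1.42 and 1.17), and Fmo1 below 0 in both (-0.86 and -0.73). Fmo6, with at most 1 count, lies at about 0.

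Genes that surround the enzymes in metabolism were read in lists chosen with earlier results of these data known. Passing shares over all tested genes were 25.9% for tumor against precancerous liver and 33.4% for tumor against normal liver. Between the sexes the share was 37.3%. These shares are from all 6 libraries. With any 1 left out, fewer of all tested genes passed in each of these comparisons. Among 9 genes of microsomal electron transfer, 1 was higher and 2 were lower in tumor than in precancerous liver, with a list median of -0.22. The one that rose was Cyb5r1, a cytochrome b5 reductase, at 1.36 ± 0.19 (SE; edgeR adjusted p = 0.00980). Hmox1, the inducible heme oxygenase, fell by 0.93 (edgeR adjusted p = 0.0200) and Cyb5a, microsomal cytochrome b5, fell by 0.77 (edgeR adjusted p = 0.0422). Without the male precancerous library 0 of these 3 passed. The Cyb5a call was also lost without male normal liver, female tumor or female precancerous liver. Por, the P450 reductase, stood at -1.29 with an edgeR adjusted p of 0.0502. Against normal liver 1 was higher and 3 were lower in tumor, and with a library omitted between 1 (without female tumor) and 3 of the 9 passed. In males 2 of the 9 were lower than in females, Por at -1.41 (edgeR adjusted p = 0.0198) and Hmox1 at -1.03 (edgeR adjusted p = 0.00878), and the Por call was lost without either precancerous library.

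NADPH is the electron donor of the family. In tumor against precancerous liver, 13.8% of all tested genes rose and 12.1% fell. Among 8 genes of NADPH supply, 2 rose in that comparison and 0 fell, with a list median of 0.31. They were G6pdx at 2.37 ± 0.15 (SE; edgeR adjusted p = 0.00276) and Pgd at 1.96 ± 0.14 (edgeR adjusted p = 0.00288), the dehydrogenases of the oxidative pentose phosphate pathway. Both passed without any 1 of the 6 libraries. Against normal liver 3 were higher and 2 lower, with G6pdx at 3.25 (edgeR adjusted p = 0.00120), Pgd at 1.95 (0.00152), H6pd at 0.75 (0.0356) and Nnt at -1.21 (0.00577). The H6pd call held in 1 of the 6 fits with a library left out, and the others of these 4 in all 6. In males 1 of the 8, Pgd, was lower than in females (-0.51, edgeR adjusted p = 0.0238), which was lost without female tumor or either precancerous library.

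The thiol-to-taurine route meets the family at the hypotaurine step of FMO1. Of its 9 genes, 1 was higher and 3 were lower in tumor than in precancerous liver, with a list median of 0.05. Over all tested genes the shares were 13.8% higher and 12.1% lower. With any 1 library left out, fewer of all tested genes passed in this comparison and between the sexes. Vnn3, a vanin, rose by 1.98 (edgeR adjusted p = 0.0165), while Baat, which conjugates bile acids with taurine or glycine, fell by 1.62 (0.00441), Cdo1, cysteine dioxygenase, by 1.08 (0.0146) and Pank1, a pantothenate kinase, by 1.06 (0.0178). All 4 calls were lost without male precancerous liver, and 3 of them, all but Baat, without female precancerous liver. The Cdo1 and Pank1 calls were also lost without female tumor. Against normal liver 2 were higher and 4 lower, led by Csad, which makes hypotaurine, at -3.20 ± 0.45 (SE; edgeR adjusted p = 0.00666), a call that held without any 1 library. Between the sexes 2 were higher and 1 was lower in males, with 1 of 9 passing without male precancerous, male normal or female precancerous liver. Gadl1 was higher, at 8.65, 7.99 and 6.94 FPKM in male tumor, precancerous and normal liver and listed at 0 in all 3 female libraries.

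Fewer of all tested genes passed with any 1 library left out than with all 6, in each comparison named here. Between tumor and precancerous liver, 13.8% of all tested genes were higher and 12.1% lower in tumor. Of 19 genes for nuclear receptors, liver transcription regulators and the growth hormone receptor, 2 were higher and 7 lower there. The list median was -0.47. Among those that fell were Ghr, the growth hormone receptor, at -2.28 ± 0.18 (SE; edgeR adjusted p = 0.00314), Nr1i3, the constitutive androstane receptor, at -2.22 ± 0.31 (0.00904), and Ahr, the aryl hydrocarbon receptor, at -1.53 ± 0.18 (0.00677). Without any 1 library the Ghr and Ahr calls held. The Nr1i3 call was lost without male precancerous liver. Of the 19, 2 passed without male and 3 without female precancerous liver. Against normal liver 2 were higher and 10 lower in tumor, and between the sexes 0 were higher and 6 lower in males, with 2 of 19 passing without either precancerous library. Of 20 other drug-oxidizing and carbonyl-metabolizing enzymes, 5 were higher and 7 lower in tumor than in precancerous liver, with a list median of -0.66. Cbr3, a carbonyl reductase, rose by 3.99 (edgeR adjusted p = 0.0172) and Nqo1, a quinone reductase, by 2.76 (0.0107), while Cyp2e1 fell by 3.58 (0.0211) and Cyp7b1 by 3.35 (0.0429). Of these 4, the Cbr3 call held without any 1 library. The 3 others were lost without male precancerous liver, Cyp2e1 and Cyp7b1 also without female precancerous liver, and Cyp7b1 also without male tumor. Of the 20, 1 passed without male and 3 without female precancerous liver. Against normal liver 4 of the 20 were higher and 11 lower in tumor, with 9 passing without male precancerous, female precancerous or female normal liver. In males 2 were higher and 4 lower than in females, with 0 passing without either precancerous library, 3 without either normal library and 9 without either tumor.

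No gene of these lists, or of the marker lists, passed between precancerous and normal liver by edgeR's quasi-likelihood test: 0 of 105, with 38 at an unadjusted p under 0.05, 13 called by DESeq2 and 0 by limma; 5 passed by edgeR without male tumor. In that comparison 1807 of the 11435 tested genes had an unadjusted p under 0.05 in edgeR. Csad stood at -2.99 there (edgeR adjusted p = 0.0879), and 0.254% of all tested genes passed. The share of all tested genes was 25.9% between tumor and precancerous liver and 33.4% between tumor and normal liver. Between the sexes it was 37.3%. Over the same 105 genes, 55 passed between tumor and precancerous liver, 15 without male and 21 without female precancerous liver. Between tumor and normal liver 68 passed, 42 without female normal liver, and between the sexes 32 passed, 8 without male and 9 without female precancerous liver.

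Markers of the cell types a liver library holds moved with tissue too. Their calls between tumor and precancerous liver stand beside 13.8% of all tested genes higher and 12.1% lower in tumor. With any 1 library left out, fewer of all tested genes passed. Summed FPKM of 9 hepatocyte markers was 70585 and 68164 in male and female tumor, 54157 and 57362 in precancerous, and 39503 and 51235 in normal liver, with none at 0 in any library; 0 rose and 3 fell in tumor against precancerous liver. Alb alone made up 53377 and 54600 FPKM of the tumor sums, and without it the sums were 17209 and 13565 FPKM in tumor, 16892 and 16232 in precancerous, and 17104 and 15852 in normal liver. The sum of 6 cholangiocyte markers was 121 and 139 FPKM in tumor, against 9.00 to 14.7 FPKM in the other 4 libraries, with 2 of 3 tested higher. Spp1 alone made up 115 and 129 FPKM of the tumor sums, and without it the sums were 5.63 and 9.74 FPKM in tumor, against 2.17 to 2.88 FPKM elsewhere. Krt19, a defining keratin, was at 0.350 FPKM in male tumor, 0.497 in male precancerous and 0.214 in male normal liver. In females it was at 1.07 FPKM in tumor, 0.399 in precancerous and 0.413 in normal liver. The sum of 8 macrophage markers was 61.7 and 107 FPKM in male and female tumor, 167 and 253 in precancerous, and 127 and 190 in normal liver, with 7 of 8 lower in tumor than in precancerous liver. Endothelial markers summed to 49.1 and 54.7 FPKM in tumor, 69.4 and 82.2 in precancerous, and 59.9 and 79.0 in normal liver, with 1 of 8 higher and 3 lower. For stellate and fibroblast markers the sums were 83.0 and 128 FPKM in tumor, 86.4 and 162 in precancerous, and 77.9 and 158 in normal liver, with 5 of 10 higher and 2 lower. Without Dcn these were 39.7 and 57.1 FPKM in tumor, 11.9 and 21.2 in precancerous, and 14.9 and 25.3 in normal liver. T, NK and B cell markers summed to 3.04 and 3.77 FPKM in tumor, 0.878 and 2.24 in precancerous, and 2.25 and 6.81 in normal liver. Cd3d was at 0 in at least 1 library. Both tested genes, Cd3e and Nkg7, were called higher in tumor than in precancerous liver. Nkg7 reached 1 FPKM only in the tumors (1.45 and 1.25), so it passed the filter through the group in which it was called higher. Col1a2, a stellate and fibroblast marker called higher in tumor, likewise reached 1 FPKM only there (1.77 and 3.52). So did Epcam, among the tested cholangiocyte markers (1.33 and 1.62). Without male precancerous liver, and likewise without female precancerous liver, 0 of the 9 hepatocyte, 1 of the 3 cholangiocyte, 4 of the 8 macrophage, 1 of the 8 endothelial, 0 of the 2 T, NK and B cell and 4 of the 10 stellate and fibroblast markers passed between tumor and precancerous liver; without female tumor 1 of the 3 cholangiocyte markers did. The calls of Pecam1, the endothelial marker that rose, and of C1qa, a macrophage marker that fell, were lost whichever library was left out. Fmo4 was high and Fmo5 low in the same tumor libraries, and the part of these cell types in either result was not tested.

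For each member the 4 genes most like it were found by Pearson's r of log2(FPKM + 1) over the 6 libraries, among 4353 tested genes that varied by at least 1 on that scale. The 6 points are single libraries of 3 tissues and 2 sexes, so r is a description. Fmo4 was closest to Ahsg (r = 0.992), Nfkb2 (0.991), Cxcl9 (0.990) and Serpinf2 (0.989). Cxcl9, a chemokine, had 21.7 and 29.7 FPKM in male and female tumor, against 2.40 to 10.4 FPKM in the other libraries. Fmo5 was closest to Slc25a13 (0.994), Gm12909 (0.992), Ldah (0.992) and C9 (0.989). Slc25a13, the liver aspartate-glutamate carrier, had 21.8 and 15.5 FPKM in male and female tumor, 39.6 and 21.9 in precancerous and 47.1 and 25.1 in normal liver. Fmo1 was closest to Gm20716 (0.971), Echs1 (0.951), Sult1c2 (0.927) and Mbl2 (0.923). Fmo2 was closest to RP24-416M6.5 (0.963), Gys2 (0.960), Abcg5 (0.952) and Spry4 (0.952).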

How the data were processed

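Messenger RNA of 6 liver libraries was measured, 1 per tissue and sex. Per the labels' protocols, a mirVana kit was used for RNA and a stranded kit for the libraries. Per the submitters' processing notes, Cuffdiff, TopHat2 2.0.9 and the builds mm10 and GRCm38 were used, with no role stated for each. Whether counting used strand is not given in these sources. The deposited table holds raw counts, not normalized by the authors, and the authors' FPKM values. The deposited FPKM equalled counts scaled by 1 gene length and the library total, with ratios between 0.99998 and 1.00002 over 7930 genes. Counts were tested with edgeR 4.0.16 (R 4.3.3; TMM scaling, quasi-likelihood test, tissue and sex terms, Benjamini-Hochberg over 11435 genes that reached 1 FPKM in 2 or more libraries, threshold 0.05), checked on simulated data. Single libraries were compared on log2(FPKM + 1), or by ratios with 95% exact binomial counting intervals, which cover counting error only. A floor of 3 counts was 0.163 to 0.500 CPM. Alternatives were DESeq2 1.42.0, limma 3.58.1 on log2 values, other scaling and filters, and each library left out. The spread behind the p-values is how far tissue differences disagree between the male and female libraries. In edgeR each gene's spread is moderated towards that of all tested genes. In that spread sex, age and technical noise cannot be told apart. The members and gene lists were chosen with earlier results of these data known. Named genes were the 4 members, other Fmo genes, the 4 genes most like each member, and from each list up to 4 called genes with the largest change, or up to 2 with the lowest adjusted p where none passed. Por was named outside this rule, after its values were seen. Some genes that the rule names are not reported here.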

Additional observations from a re-analysis of the deposited data

Results flagged for a closer look

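For 4 tissue differences the male and female libraries lay on opposite sides of 0 on the log2(FPKM + 1) scale, with 1 library on each side of every difference; the difference between the sexes was not tested. Fmo1 precancerous minus normal was 0.91 in males and -0.52 in females, 1.43 apart, and both were beyond counting error. Fmo1 tumor minus normal was 0.05 in males, within counting error, and -1.25 in females, 1.30 apart. Fmo2 tumor minus precancerous was -1.09 in males and 0.00 in females, the female value within counting error, a male minus female gap of -1.09. Fmo4 precancerous minus normal was 0.32 in males, within counting error, and -0.30 in females, 0.62 apart.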

How the results depend on the processing

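No paired analysis was possible because the labels do not tie libraries to the same mouse; the sex term compares tissues within each sex. Without it, 113 genes passed between tumor and precancerous liver (2965 with it), 0 between precancerous and normal liver (29; edgeR, with 500 at an unadjusted p under 0.05), and 690 between tumor and normal liver (3819), and the Fmo4 calls were lost (edgeR adjusted p = 0.310 against precancerous and 0.300 against normal liver), as was that of Fmo5 against normal liver (0.322). Without the tissue term 1237 genes passed between males and females (4270), and the Fmo4 and Fmo5 calls were lost (edgeR adjusted p = 0.493 and 0.283). Between precancerous and normal liver 368 genes passed with DESeq2, 3 with limma on log2(FPKM + 1), 10 with limma on log2(FPKM + 0.1) and 183 with no filter on FPKM; the cause was not tested. With 1 library left out, fewer samples gave 458 (without male precancerous) to 2937 genes between tumor and precancerous liver, 0 (without female precancerous, with 865 at an unadjusted p under 0.05 in edgeR) to 219 (without female tumor) between precancerous and normal liver, 1923 (without female normal) to 3234 between tumor and normal liver, and 764 (without male precancerous) to 3729 between the sexes. The direction of Fmo4 between precancerous and normal liver turned under limma, to 0.0116 with pseudocount 1 and 0.0613 with 0.1. Across the left-out libraries the log2 fold change ran from -1.77 to 0.42 for Fmo2 in tumor against precancerous liver. Between precancerous and normal liver it ran from -0.50 to 0.93 for Fmo1, from -0.47 to 0.66 for Fmo4 and from -0.17 to 0.0310 for Fmo5. For Fmo1 it ran from -1.37 to 0.0650 in tumor against normal liver and from -0.57 to 0.19 in males against females. Fmo5 in tumor against precancerous liver passed under 7 of 8 other settings with all libraries (edgeR, DESeq2 or limma adjusted p 0.00199 to 0.430, the highest without the sex term) and in 0 of 6 fits with a library left out. Depth limits Fmo2 in male normal liver, which has 24 counts.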
